A study of Arabidopsis thaliana with 33 samples.

Results

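Of 22746 probe sets, 22 (0.0967%) were lower in roots of Arabidopsis thaliana seedlings under both low-oxygen atmospheres than in 2 references with normal oxygen. The references were 50 kPa with oxygen added back and control replicates 2 and 3 at 97 kPa. Low oxygen was reached either by lowering the whole pressure to 25 kPa or by lowering oxygen alone at 97 kPa. Members were chosen on measured root values. The mean at 25 kPa without added oxygen and the mean at 97 kPa/HypOx each had to lie at least 0.5 log2 units below the mean at 50 kPa/NormOx and below the mean of control replicates 2 and 3. The mirror-image rule, at least 0.5 higher in both, selected 155 probe sets, 0.681% of all. These root values therefore describe the members and are not a test of them.

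Seedlings of the ecotype Wassilewskija (WS) were grown on vertical plates and exposed for 24 h at an age of 10 d to 1 of 6 atmospheres. The control was 97 kPa, with normal oxygen. In 50 kPa and 25 kPa the oxygen fell in proportion to the pressure. In 50 kPa/NormOx and 25 kPa/NormOx oxygen was added back to a partial pressure of 21 kPa. In 97 kPa/HypOx the pressure was that of the control and oxygen was lowered to 5.1 kPa. Each array held the RNA of roots, or of shoots (the aerial part), pooled from the plants of 1 tube; the labels name no mutation or transgene. Roots gave 3 arrays for each of the 3 atmospheres without added oxygen and for 97 kPa/HypOx, 2 at 50 kPa/NormOx and 1 at 25 kPa/NormOx. Shoots gave 3 for each of the 3 atmospheres without added oxygen and for 25 kPa/NormOx, 4 at 50 kPa/NormOx and 2 at 97 kPa/HypOx. In bulk tissue, fewer cells of a type and less RNA per cell cannot be told apart.

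When oxygen runs short, plant mitochondria can no longer pass electrons to it fast enough, and cells turn to glycolysis and fermentation for energy. A core set of genes for fermentation and for handling scarce oxygen is switched on, and costly processes such as growth, ribosome production and much of biosynthesis are turned down. In soil, roots are the organ most often exposed to poor aeration.

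Root 97 kPa replicate 1 stood apart from the other root arrays, with a mean correlation to them of 0.884 against 0.966 to 0.980 for the rest, and it was not part of the rule. Shoot 50 kPa/NormOx replicate 1 stood apart in the same way, at 0.899 against 0.974 to 0.983. The tissues matched their labels. The array means of 7 nuclear photosynthesis genes (PSBY, PSAN, PSAE-1, PSBW, LHCB4.1, LHCB4.2 and LHCB4.3, picked by symbol after the data were seen) were between 6.50 and 7.86 in roots and between 11.18 and 11.61 in shoots. The means of EXPA7 and PYK10, a root hair expansin and a root beta-glucosidase, were between 9.37 and 10.40 in roots and between 6.15 and 8.01 in shoots. The 8.01 was 1 array of shoot 50 kPa/NormOx, a group with a mean of 6.95 and a lowest array of 6.55. Within roots, the photosynthesis genes were highest at 25 kPa (7.34 to 7.86), then at 97 kPa/HypOx (6.87 to 7.30), with 6.55 to 6.75 at 50 kPa/NormOx and 6.50 to 7.26 at 97 kPa. The 22 members were lower in the groups where these genes averaged higher, and the part of tissue makeup in their fall was not tested.

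The array annotation gave 1 gene for 13 of the 22 members, and the study's supplementary tables named 1 more, ACP5. The other 8 have no gene name in the tables used here and are given by probe set. The 14 named genes lie on all 5 nuclear chromosomes, with 4 each on chromosomes 1, 3 and 5 and 1 each on chromosomes 2 and 4. They do not form a single pathway. Mitochondrial roles are present in a pair of them: SDH2-2 (AT5G40650) encodes an iron-sulfur subunit of succinate dehydrogenase, the respiratory complex that also works in the citric acid cycle, and AT5G15640 belongs to the mitochondrial substrate carriers. ACP5 (AT5G27200) is an acyl carrier protein of fatty acid synthesis, and ASPGB1 (AT3G16150) is an asparaginase, which releases ammonium from asparagine. HTB1 (AT1G07790) is a histone H2B. PDF2.5 (AT5G63660), a defensin, and AT1G73620, of the thaumatin family, have relatives in pathogen defence. AT1G80170 belongs to the pectin lyase-like proteins of the cell wall, AT1G23160 to the GH3 family that joins amino acids to hormones, and AT3G57010 to the strictosidine synthase-like proteins. AT2G37540 is a Rossmann-fold NAD(P)-binding protein, AT3G13160 a pentatricopeptide repeat protein, the kind that handles organelle RNA, and AT4G10280 a small cupin-fold protein. AT3G28320 is given by its locus.

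All falls were modest. The difference between the mean of both low-oxygen groups and the mean of both references ran from -1.16 to -0.54 log2 units, with a median of -0.68, a 1.60-fold lower level. It reached 1 log2 unit in 3 of the 22. AT4G10280 had the largest, -1.16 (2.24-fold lower), followed by 257481_at at -1.05 and 253300_at at -1.03. In 20 of the 22, all 6 low-oxygen arrays lay below all 4 reference arrays, a separation seen in 1.72% of all probe sets and one the selection itself favours. AT3G28320 and AT1G23160 were the exceptions. Both ways of lowering oxygen gave like values in the members, which the rule itself favours, since it required both means to be low. The 97 kPa/HypOx mean was the lower in 11 members and the 25 kPa mean in the other 11. The pair of means differed by 0.42 at most (AT3G28320, 5.50 at 25 kPa and 5.92 at 97 kPa/HypOx).

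**Figure D1:**
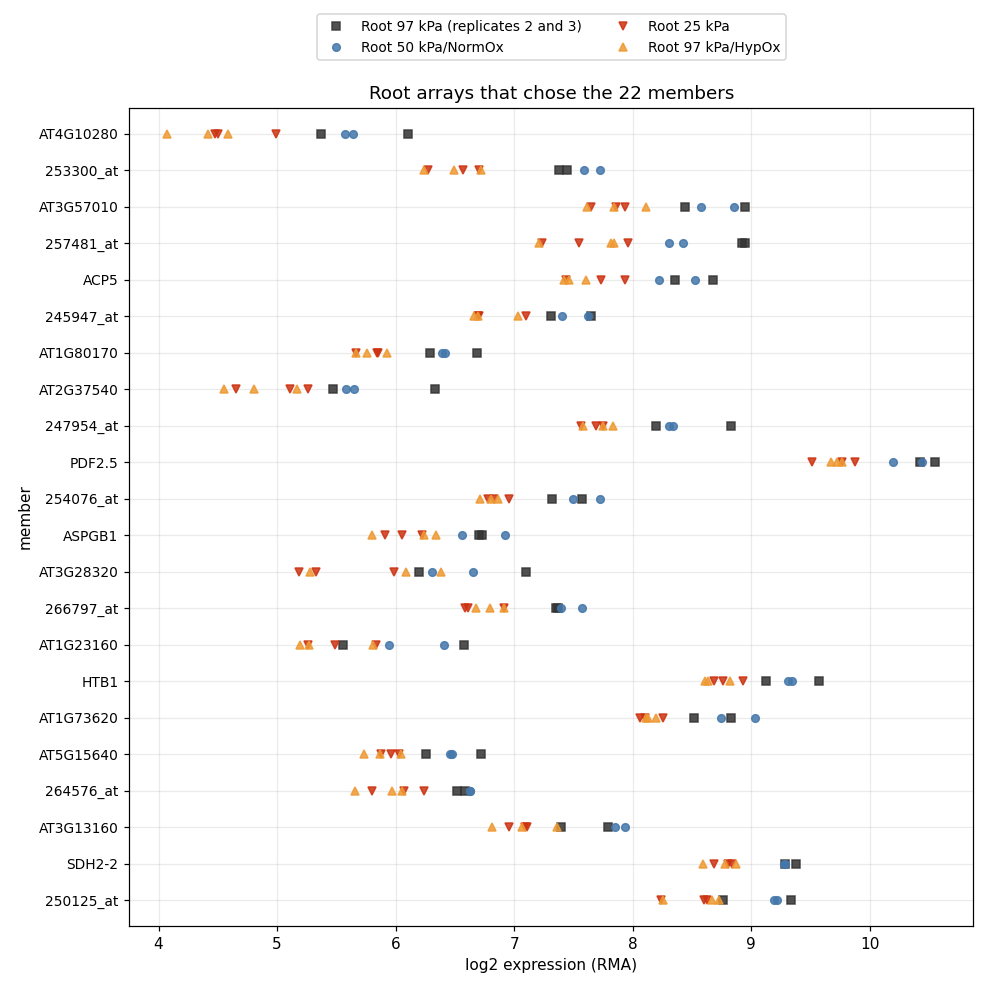
Log2 expression (x axis) of the 22 members (y axis, ordered by the size of the smallest gap in the rule) in the 10 root arrays that chose them, 1 symbol per array. Triangles are the 6 low-oxygen arrays, squares and circles the 4 reference arrays, and the symbol groups separate in 20 of the 22 rows.

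For SDH2-2, the values were 8.81, 8.84 and 8.69 at 25 kPa, and 8.87, 8.78 and 8.60 at 97 kPa/HypOx. They were 9.28 and 9.38 in control replicates 2 and 3, and 9.27 and 9.29 at 50 kPa/NormOx. The replicates of each group were close and the 2 sets did not meet. The other subunit genes of the complex with a named probe set, picked after the members were known, did not share the fall: SDH2-1 (257713_at), the sister gene of SDH2-2, was at 9.67 and 9.63 under low oxygen against 9.47 and 9.74 in the references, and SDH1-1 was at 7.63 and 7.92 against 7.68 and 8.16. SDH1-2 and a second SDH2-1 probe set stayed between 3.72 and 4.33 in all of these groups, below the root median level of 5.12.

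PDF2.5 was at 10.42 and 10.55 in control replicates 2 and 3 and 10.19 and 10.44 at 50 kPa/NormOx. Its values were 9.51, 9.88 and 9.77 at 25 kPa and 9.76, 9.68 and 9.73 at 97 kPa/HypOx. Its relative PDF2.1 moved by a similar amount, with means of 6.50 and 6.21 under low oxygen and 6.87 and 7.09 in the references, but its smallest gap, 0.37, kept it out of the members. ASPGB1 read 6.05, 6.22 and 5.91 at 25 kPa and 6.24, 5.80 and 6.34 at 97 kPa/HypOx, below every reference array, which held 6.73, 6.70, 6.92 and 6.56. The other asparaginase gene, ASPGA1, had means of 7.90 and 7.97 under low oxygen and 7.98 and 7.70 in the references.

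HTB1 read 8.68, 8.93 and 8.76 at 25 kPa, 8.82, 8.61 and 8.63 at 97 kPa/HypOx, 9.57 and 9.13 in the controls, and 9.35 and 9.31 at 50 kPa/NormOx. Of the 3 other H2B genes with a named probe set, HTB4 was lower on average by 0.29, HTB2 by 0.22 and HTB11 by 0.15, all short of the rule. HTB11 stayed between 3.36 and 3.58 in these group means, below the root median level of 5.12. Probe sets of near-identical histone genes can share transcripts, so these 4 values are not fully separate measurements. For the GH3 member AT1G23160 the arrays overlapped: 5.26, 5.49 and 5.84 at 25 kPa and 5.81, 5.27 and 5.20 at 97 kPa/HypOx, against 5.56 and 6.58 in the controls and 6.41 and 5.94 at 50 kPa/NormOx. Of 4 other genes named GH3, GH3.1 was lower on average by 0.12, while GH3.3, GH3.9 and GH3.17 were higher on average, GH3.17 by 0.30. The group means of GH3.1, GH3.3 and GH3.9 were between 3.56 and 4.15, also below the root median level.

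ACP5 was at 7.43, 7.93 and 7.73 at 25 kPa, 7.46, 7.60 and 7.42 at 97 kPa/HypOx, 8.35 and 8.68 in the controls, and 8.22 and 8.53 at 50 kPa/NormOx. AT3G57010 was at 7.94, 7.65 and 7.86, then 7.84, 8.11 and 7.61, against 8.44 and 8.94 in the controls and 8.86 and 8.58 at 50 kPa/NormOx. In both, every low-oxygen array was below every reference array. At the edge of the rule, AT3G13160, SDH2-2 and 250125_at were just inside with smallest gaps of 0.513, 0.503 and 0.501. AT2G33830, AT5G02480 and the ferritin gene FER4 were just outside with 0.496, 0.49 and 0.49.

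The gene model of AT4G10280 overlaps that of AT4G10270, a wound-responsive family gene, by 86 bases in the TAIR10.1 annotation. The overlapping gene moved the other way in the same roots: its means were 10.37 at 25 kPa and 11.00 at 97 kPa/HypOx, against 7.37 in controls 2 and 3 and 7.23 at 50 kPa/NormOx, 10.5-fold higher on average. AT4G10280 read 4.48, 4.50 and 4.99 at 25 kPa, 4.42, 4.58 and 4.07 at 97 kPa/HypOx, 5.37 and 6.10 in the controls, and 5.57 and 5.64 at 50 kPa/NormOx. Whether the probes of 1 gene read transcript of the other was not tested. At 50 kPa the 2 genes went apart: AT4G10270 was already at 9.19, 9.10 and 9.13, above all reference arrays, while AT4G10280 was at 4.43, 5.61 and 5.59, with 2 arrays at the reference level and 1 at the low-oxygen level. Of the other members, SDH2-2, AT2G37540, ACP5 and AT3G13160 also overlap a neighbouring gene model. The probe set of the gene overlapping SDH2-2, AT5G40660, was 0.21 higher under low oxygen.

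**Figure D2:**
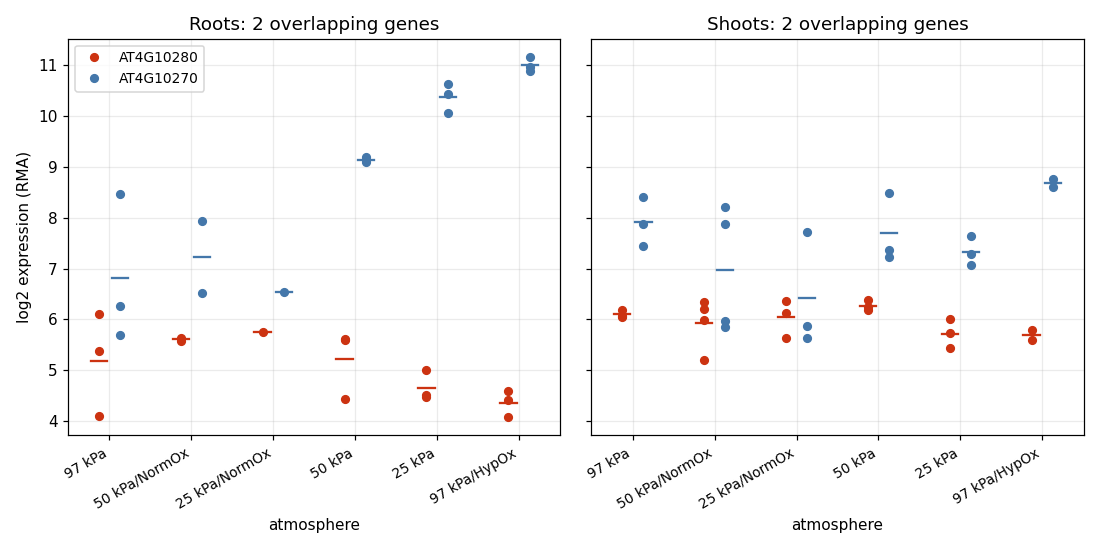
Log2 expression (y axis) of AT4G10280 and its overlapping neighbour AT4G10270 in every root (left) and shoot (right) array by atmosphere (x axis), with short lines at the group means. In roots the neighbour rises from 7.37 in controls 2 and 3 to 11.00 at 97 kPa/HypOx while AT4G10280 is at 4.36 there.

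The root arrays that the selection did not use give a second look at these genes. The single 25 kPa/NormOx array, in which pressure was as low as at 25 kPa but oxygen was normal, lay above all 6 low-oxygen arrays in 22 of 22 members, against 19.2% of all probe sets. The low-oxygen arrays were chosen to be low, so a share above the background follows in part from the rule. The median member there had 1.04 of the drop recovered, on a scale where 0 is the low-oxygen mean and 1 the mean of controls 2 and 3. The range was 0.38 for AT3G57010 (8.16) to 1.62 for AT1G23160 (6.44). This rests on 1 array, and the pressure effect alone cannot be tested with it. Control replicate 1 behaved otherwise. It lay above all 6 low-oxygen arrays in 7 of 22 members, against 34.1% of all probe sets, and was below the mean of controls 2 and 3 in 19 of 22, against 53.6% of all. It was lower by at least 1 log2 unit in 6 of them, against 8.92% of all, among them AT4G10280 at 4.09 and AT5G15640 at 4.93. PDF2.5 (10.33), ASPGB1 (6.79), HTB1 (9.39) and SDH2-2 (9.23) were among the 7 that stayed high in it, with 253300_at, 245947_at and 250125_at.

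At 50 kPa, where pressure and oxygen lay between those of 97 kPa and 25 kPa, the members stood nearer to the reference than to the low-oxygen level. On a scale where 0 is the mean of controls 2 and 3 and 1 the low-oxygen mean, the median member was at 0.26, and at 0.35, 0.16 and 0.22 in replicates 1, 2 and 3 taken alone. It was at 0.32 with the 25 kPa/NormOx array as the zero. The 50 kPa mean was nearer to that of controls 2 and 3 than to the low-oxygen mean in 20 of 22, against 43.2% of all probe sets, and the exceptions were AT1G80170 (0.69) and 264576_at (0.52). It lay above the low-oxygen mean in 22 of 22, against 51.9% of all, and below the mean of controls 2 and 3 in 18 of 22, against 50.5%. The rule set both of these means apart, which favours a place between them. All 3 arrays at 50 kPa were above all 6 low-oxygen arrays in 15 members, against 2.48% of all probe sets, and all 3 were below all 4 reference arrays in 2 members, AT1G80170 and 264576_at, against 3.39%. All of these comparisons use arrays of the rule, so they carry no test.

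Individual genes differed at this step. AT1G80170 read 6.12, 5.94 and 5.94 at 50 kPa, near its 25 kPa values of 5.66, 5.84 and 5.85 and below controls 2 and 3 at 6.69 and 6.29. Control replicate 1, at 5.84, was below all 3 of the 50 kPa values. SDH2-2 read 9.26, 9.12 and 9.38, above all of its low-oxygen arrays. ASPGB1 read 6.96, 6.96 and 6.40, with 1 array below its references. The replicates of AT1G23160 were far apart, at 4.97, 6.51 and 5.86, and so were those of AT3G28320, at 6.38, 7.63 and 6.72. PDF2.5 read 10.29, 10.00 and 10.25 and HTB1 9.18, 8.99 and 9.10, between their low-oxygen and reference means.

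**Figure D3:**
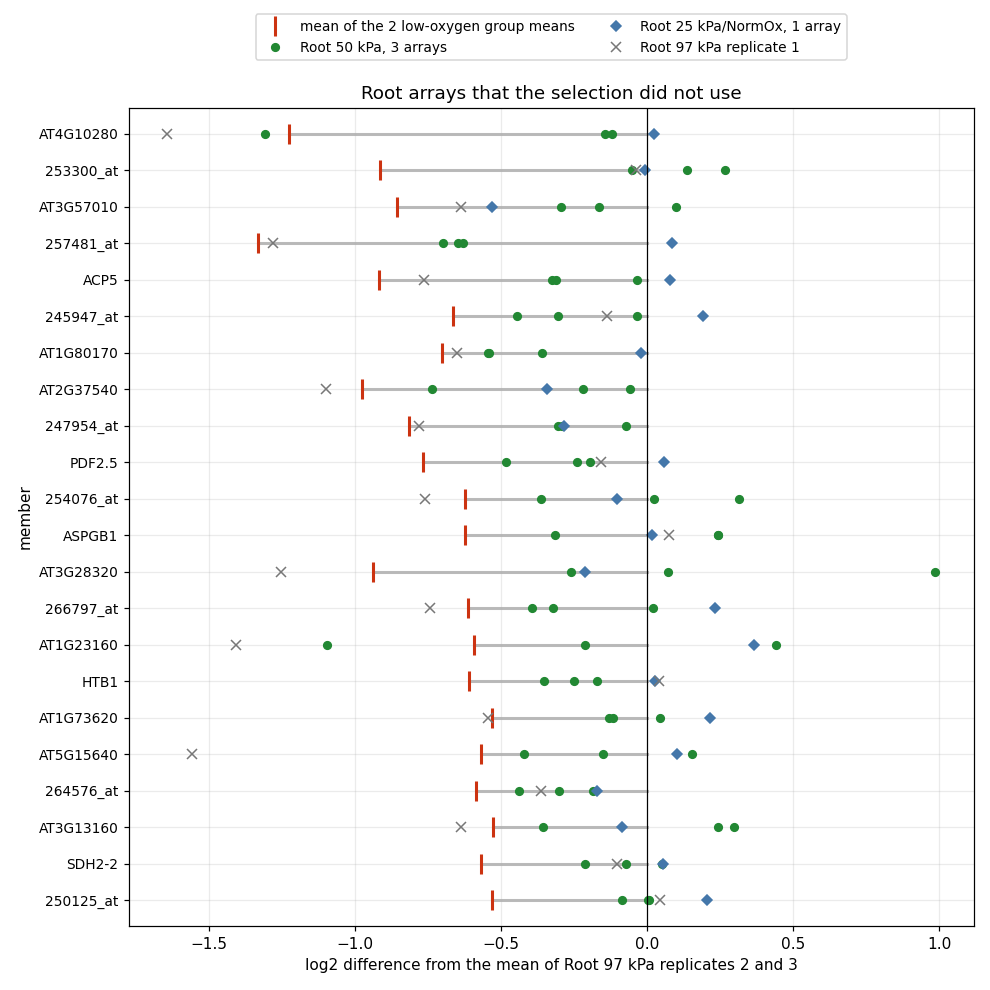
Log2 difference from the mean of control replicates 2 and 3 (x axis) for each member (y axis) in the root arrays outside the rule: 50 kPa (circles), 25 kPa/NormOx (diamonds) and control replicate 1 (crosses). The vertical marks are the low-oxygen mean, and 20 of the 22 members have their 50 kPa mean nearer to 0 than to that mark.

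At 50 kPa, 1 test was made of groups that the rule did not use, a comparison with the 25 kPa/NormOx array, by limma's moderated test over all root arrays with Benjamini-Hochberg adjustment over 22645 probe sets. The single array is assumed to vary like the other groups, and the spread was estimated from all root arrays, those that chose the members included. The test asks whether roots at 50 kPa with less oxygen differ from roots at a lower pressure with normal oxygen. No member passed the threshold of the study's methods (unadjusted p under 0.01 and a change of at least 1 log2 unit; lower in 0.0132% of all), none passed Benjamini-Hochberg at 0.05 (0% of all), and none was lower at an unadjusted p under 0.05 (1.63% of all). The difference was negative in 14 of 22 members and 49.4% of all probe sets, with a median of -0.24 against 0.00. All 3 arrays at 50 kPa were below the 25 kPa/NormOx array in 12 of 22, against 22.1% of all. The lowest among named genes were AT1G23160 (-0.66, SE 0.65), AT4G10280 (-0.55, SE 0.62), AT1G80170 (-0.46, SE 0.25), PDF2.5 (-0.36, SE 0.18) and ACP5 (-0.30, SE 0.30). The highest were AT3G28320 (0.48, SE 0.63), AT3G57010 (0.41, SE 0.30), AT3G13160 (0.15, SE 0.32), ASPGB1 (0.04, SE 0.26) and AT2G37540 (0.00, SE 0.47). The 95% intervals were wide, with a median half-width of 0.63. The fermentation gene PDC2, a pyruvate decarboxylase, had a difference of 1.06 in the same test (limma adjusted p = 1.00). For the lactate dehydrogenase AT4G17260 the difference was 0.27.

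With root control replicate 1 left out of the fit, 3 members were lower at an unadjusted p under 0.05, against 3.17% of all probe sets: 257481_at (-0.74), AT1G80170 (-0.46) and 266797_at (-0.46), with limma adjusted p from 0.854 to 0.911. With limma's array weights, which lower the influence of arrays that stand apart, 6 were lower at that threshold, against 9.29% of all. AT3G57010 was higher at it, and the share of all probe sets that were higher was not computed. The smallest limma adjusted p was 0.0744, for AT1G80170.

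Root and shoot arrays were normalised separately, so levels across them are only broadly comparable. At 97 kPa, with the mean of controls 2 and 3 as the root level, 12 of 22 were at least 1 log2 unit higher in roots than in shoots, against 9.81% of all probe sets, and 7 were at least 2 units higher, against 2.79%. With all 3 root controls, 12 were at least 1 unit higher, against 9.54% of all, and 4 at least 2 units, against 2.48%. The rule set no minimum level, but a fall of 0.5 needs a root level above the array's floor, which favours this. All 22 had a root reference level above the root median. No share among probe sets of like root level was computed. PDF2.5 led with a root level 5.68 above that in shoots, followed by AT3G57010 (4.21), 257481_at (4.12), ACP5 (3.89), AT1G23160 (2.27), 266797_at (2.14) and AT3G28320 (2.11). HTB1 (0.17) and 250125_at (0.03) were near equal. The 4 members with the higher level in shoots were AT2G37540 (-0.48), AT4G10280 (-0.36), 253300_at (-0.21) and ASPGB1 (-0.07). In shoots, 7 members were below the shoot median level of 5.14, where a fall can be compressed by the array's floor.

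**Figure D4:**
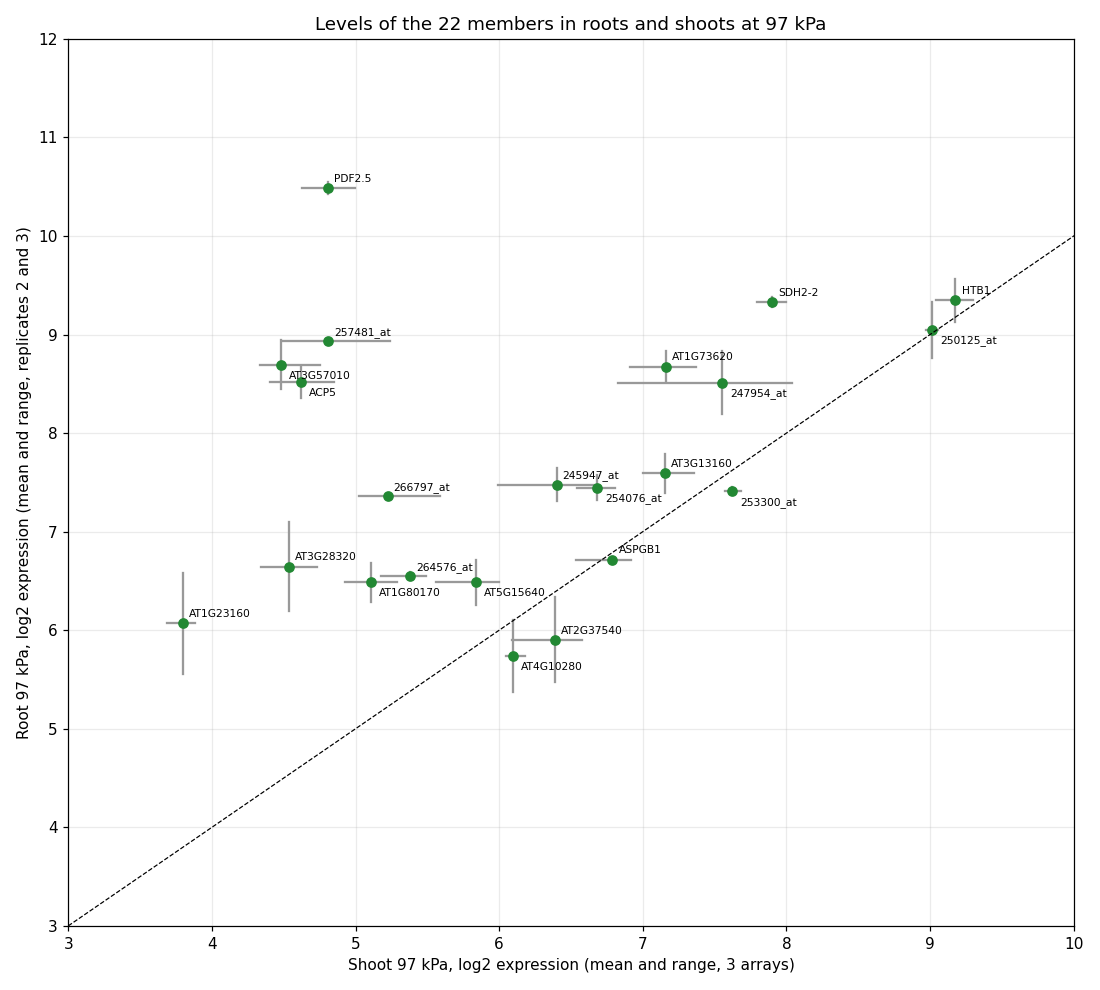
Mean log2 expression of the 22 members at 97 kPa in shoots (x axis, 3 arrays) against roots (y axis, replicates 2 and 3), with lines for the range over arrays and a dashed line of equal level. PDF2.5, 257481_at, AT3G57010 and ACP5 stand 3.89 to 5.68 log2 units above the line.

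Shoots exposed to the same atmospheres ask whether the fall was shared by the other organ, in a tissue that the selection did not use. In the contrast that mirrors the rule, the mean of 25 kPa and 97 kPa/HypOx minus the mean of 97 kPa and 50 kPa/NormOx, no member passed the methods' threshold (lower in 0.0221% of all) or Benjamini-Hochberg (0.106% of all, by limma). 1 of 22 was lower at an unadjusted p under 0.05 (2.43% of all). No member had all 5 low-oxygen shoot arrays below all 7 reference arrays (0.176% of all). The difference was negative in 15 of 22 and 55.3% of all probe sets, with a median of -0.09 against -0.01. The median half-width of the 95% intervals was 0.25. The 1 was 253300_at, lower by 0.36 (SE 0.11, limma adjusted p = 0.401). The lowest named genes were AT4G10280 (-0.31, SE 0.18), AT1G73620 (-0.22, SE 0.15), PDF2.5 (-0.19, SE 0.09), HTB1 (-0.14, SE 0.12) and AT3G57010 (-0.10, SE 0.08). The highest were AT2G37540 (0.40, SE 0.25), AT5G15640 (0.16, SE 0.16), SDH2-2 (0.06, SE 0.07), AT3G13160 (0.01, SE 0.27) and AT1G23160 (0.00, SE 0.07). Of these, AT1G23160 (3.80 in 97 kPa shoots), AT3G57010 (4.48) and PDF2.5 (4.81) lay below the shoot median level, where a change can be compressed. In the same contrast PDC2 was 0.68 higher (limma adjusted p = 0.0256). The lactate dehydrogenase AT4G17260 was 0.78 higher there (limma adjusted p = 0.494). At 25 kPa against 97 kPa alone, PDC2 was 0.23 higher (limma adjusted p = 0.943).

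The array that stands apart bears on this contrast. Without shoot 50 kPa/NormOx replicate 1, 5 of 22 members were lower at an unadjusted p under 0.05, against 3.93% of all probe sets: AT4G10280 (-0.43), 253300_at (-0.39), 245947_at (-0.45), PDF2.5 (-0.21) and AT1G73620 (-0.30), with limma adjusted p of 0.214 at the least. Of the highest genes, AT2G37540 was at 0.18 (SE 0.09) and AT5G15640 at 0.05 (SE 0.11) without that array, and AT3G13160 turned to -0.21 (SE 0.13). With array weights, 2 passed Benjamini-Hochberg as lower, against 1.85% of all, namely 253300_at (-0.42, limma adjusted p = 0.0176) and 245947_at (-0.48, limma adjusted p = 0.0141). In the shoots, 253300_at read 7.62, 7.57 and 7.68 at 97 kPa, 7.20, 7.28 and 7.39 at 25 kPa, and 6.93 and 7.23 at 97 kPa/HypOx. The 5 low-oxygen arrays were all below the 3 controls, but 50 kPa/NormOx held 7.25, 7.15, 7.85 and 7.60 and overlapped both.

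At 25 kPa against 97 kPa, no shoot member passed the methods' threshold (lower in 0.053% of all) or Benjamini-Hochberg (0.0795% of all). 2 were lower at an unadjusted p under 0.05 (3.68% of all) and 1 was higher (3.78% of all). PDF2.5 was lower by 0.45 (SE 0.12, limma adjusted p = 0.227), with 4.22, 4.60 and 4.27 at 25 kPa against 5.00, 4.80 and 4.63 at 97 kPa. Those levels lie below the shoot median, and 25 kPa/NormOx at 4.17, 4.36 and 4.58 was as low. 253300_at was lower by 0.33 (limma adjusted p = 0.639). SDH2-2 was higher by 0.20 (SE 0.09, limma adjusted p = 0.608), the reverse of its root direction. Without the array that stands apart, 7 were lower, against 5.91% of all, and AT2G37540 was higher by 0.46 (limma adjusted p = 0.0821). With array weights, 4 members passed Benjamini-Hochberg as lower, against 3.78% of all (253300_at, 257481_at, 245947_at and PDF2.5), and AT2G37540 passed as higher (0.43, limma adjusted p = 0.0421). The share of all probe sets that passed as higher was not computed, so this call is not a result about the members.

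At 97 kPa/HypOx against 97 kPa in shoots, no member passed the methods' threshold (lower in 0.0265% of all) or Benjamini-Hochberg (0.0221% of all), and 2 were lower at an unadjusted p under 0.05 (1.07% of all). These were 253300_at, lower by 0.54 (SE 0.17, limma adjusted p = 1.00), and PDF2.5, lower by 0.43 (SE 0.14, limma adjusted p = 1.00), with 4.43 and 4.33 in its arrays. Leaving out 1 of the 97 kPa/HypOx arrays took 1 or the other past that threshold. At 50 kPa against 97 kPa none passed the methods' threshold (lower in 0.00442% of all) or Benjamini-Hochberg (0% of all), and 1 was lower at an unadjusted p under 0.05 (2.6% of all), PDF2.5 again, by 0.32 (SE 0.12, limma adjusted p = 0.749). These contrasts share the 97 kPa shoots, in which PDF2.5 had the highest mean of the 6 shoot groups.

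The contrast of 25 kPa with 25 kPa/NormOx changes oxygen at one pressure and has its own control. No shoot member passed the methods' threshold (lower in 0.0486% of all) or Benjamini-Hochberg (0.00442% of all), 2 were lower at an unadjusted p under 0.05 (3.39% of all) and 1 was higher (2.97% of all). The lower ones were 253300_at (-0.35, limma adjusted p = 0.736) and HTB1 (-0.36, SE 0.16, limma adjusted p = 0.750). HTB1 read 8.87, 9.14 and 8.58 against 9.34, 8.98 and 9.34, so its groups overlapped. SDH2-2 was higher by 0.31 (SE 0.09, limma adjusted p = 0.355), with 8.12, 8.05 and 8.14 against 7.76, 7.83 and 7.79, and these groups did not overlap. At 97 kPa/HypOx, however, its shoot values of 7.76 and 7.78 were below all 3 of the 97 kPa values, the lowest of which was 7.79. Without the array that stands apart, 5 members were lower, against 5.67% of all. With array weights, 3 passed Benjamini-Hochberg as lower (253300_at, 245947_at and AT1G80170), against 6.68% of all, and SDH2-2 passed as higher (limma adjusted p = 0.0110). For higher calls with array weights the share of all probe sets was not computed.

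**Figure D5:**
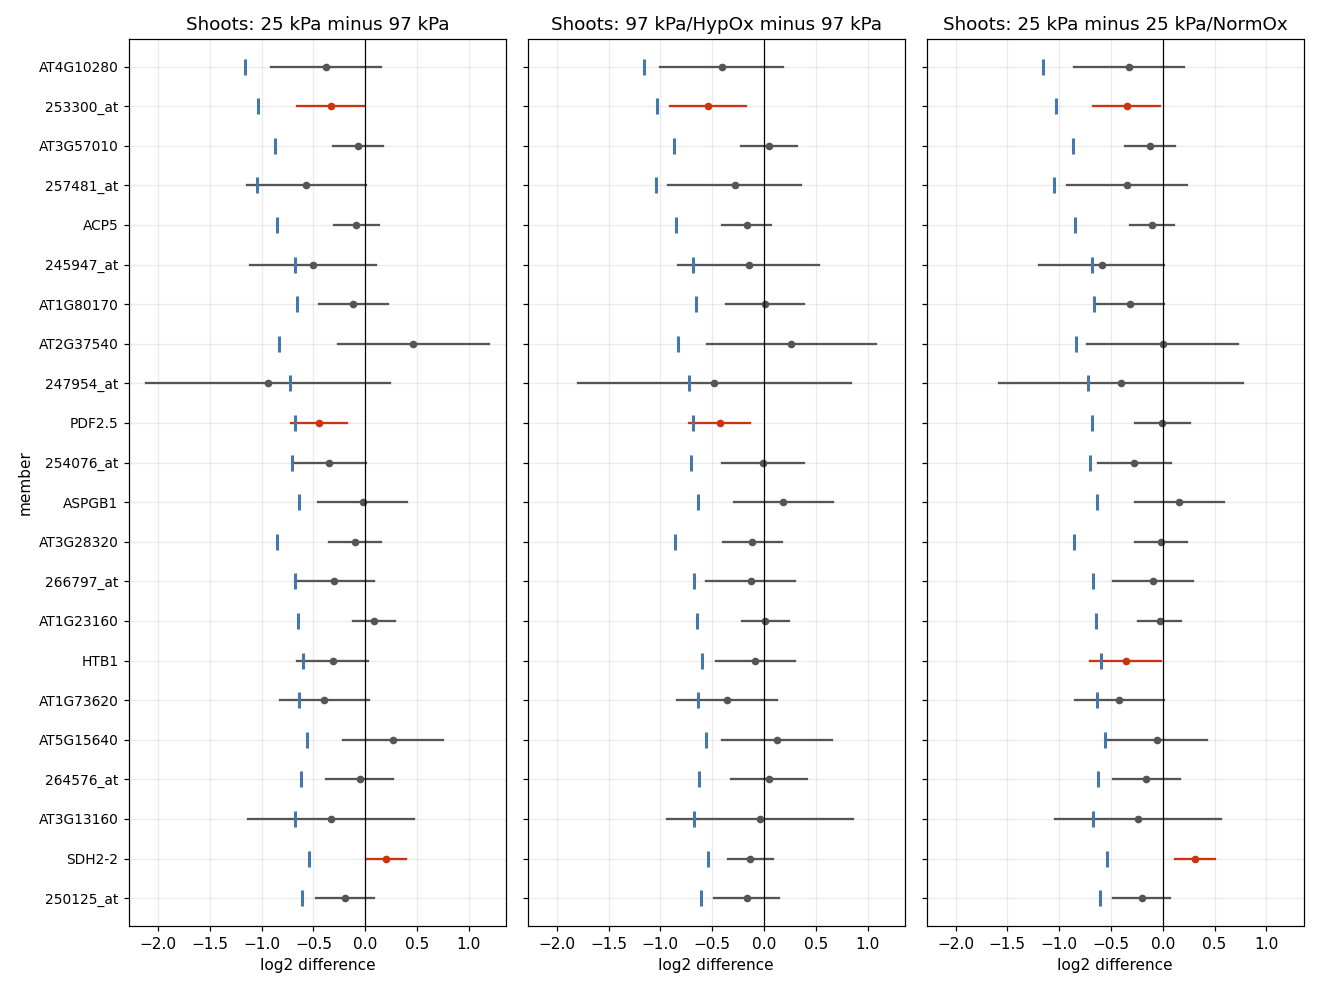
Shoot log2 differences (x axis) of the 22 members (y axis) in 3 contrasts, with points for limma estimates and lines for 95% intervals. Red marks an unadjusted p under 0.05, and the blue mark is the root difference that chose the member. SDH2-2 is the only member in red to the right of 0, and 253300_at is in red in all 3 panels.

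Few other genes with related roles could be followed. Of 287 genes in 18 lists on low oxygen, root structure, nutrients, hormones, cell wall and defence, 38 have a probe set with 1 gene in the array annotation, and none of the 38 was a member. In roots, 2 of the 38 were lower on average by at least 0.5 under low oxygen, against 0.572% of all probe sets. They were the expansin EXPA15 (-0.50) and the xyloglucan enzyme XTH16 (-0.54). Over all 3 root controls XTH16 had a mean of 5.68, below its low-oxygen means of 5.77 and 5.75. EXPA15 had 8.53 over all 3, above its low-oxygen means of 8.04 and 8.29. The other 2 that moved as far were higher, PDC2 (1.33) and the lactate dehydrogenase AT4G17260 (1.26), both fermentation genes. Listed genes named only by the study's supplementary tables, a naming that depends on the study's own results, moved both ways. The copper transporter COPT2 (-0.70), the triterpene enzyme MRN1 (-0.56), FER4 (-0.56) and the aquaporin TIP2;3 (-0.53) were lower by at least 0.5. For TIP2;3 this rests on 50 kPa/NormOx (6.06), since its 25 kPa mean (5.11) was above that of controls 2 and 3 (4.95). COPT2 leaned on controls 2 and 3 (7.22), with 6.30 at 97 kPa/HypOx against 6.37 at 50 kPa/NormOx. XTH5, of the same wall list as EXPA15 and XTH16, was 0.66 higher. In the iron and copper list of COPT2 and FER4, CSD1 (0.54) and FRU (0.52) were higher. For CSD1 this rests on controls 2 and 3 (9.53), since its 97 kPa/HypOx mean (10.415) was below that of 50 kPa/NormOx (10.68). FRU leaned on these controls too (4.68), with 5.26 at 97 kPa/HypOx against 5.22 at 50 kPa/NormOx. Also higher by at least 0.5 were GSR2 (0.66), PSBO1 (0.93) and all low-oxygen genes of this naming except AT5G39890 (0.20), up to 3.90 for AT4G33070. GSR2 was at 10.98 in both low-oxygen means, against 10.74 at 50 kPa/NormOx and 9.91 in controls 2 and 3. None of these root values was tested, since they come from the contrast behind the rule.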

How the data were processed

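The authors hybridised root and shoot RNA to Affymetrix ATH1 arrays, 15 for roots and 18 for shoots, and deposited log2 values from RMA in Affymetrix Expression Console, per the labels. The arrays of each tissue share 1 distribution of values, with a median of 5.12 in roots and 5.14 in shoots, so roots and shoots were normalised separately. The deposited log2 values were used as given. Members and gene lists were chosen with earlier results of these data known. Detection calls and scan batches were not given in the sources used here. The number of arrays limits the precision.

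Group differences were tested with limma 3.58.1 (R 4.3.3), 1 fit per tissue with 6 groups, two-sided, with Benjamini-Hochberg adjustment over 22645 probe sets after 101 probe sets of organelle genes were removed. The scripts were tested on simulated data. Gene names came from the platform annotation (13513 probe sets with 1 gene, 503 with several, 8730 with none) and from the study's supplementary tables for 234 more. Named members were those with the largest root fall, the 5 lowest and 5 highest in the root and shoot tests, those passing a test, and those next to the threshold. The study's methods give 3 chambers with 1 tube each per treatment, so the 4 shoot arrays at 50 kPa/NormOx cannot all come from separate chambers of 1 such run, and p-values measure the spread between these arrays only. Alternatives were a level filter, a replicate block, a trended robust prior, array weights, organelle probe sets kept, each replicate left out, and other rule settings. The fits without the arrays that stand apart were added after the data were seen.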

Additional observations from a re-analysis of the deposited data

Results flagged for a closer look

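With 4 arrays, shoot 50 kPa/NormOx was the one group large enough to look for a single outlying array. In 4 of 22 members replicate 1 lay far below the other 3 by Dixon's criterion, as in 5.9% of all probe sets. Chance marks about 1 group in 20 when any of the 4 arrays, high or low, is counted. The 5.9% counts only replicate 1 lying low, for which the chance rate is lower and was not computed. AT2G37540 was at 5.04 against 6.69 to 6.85, AT3G13160 at 5.43 against 7.10 to 7.32, 245947_at at 5.46 against 6.55 to 6.74 and AT1G80170 at 4.74 against 5.25 to 5.35. This is the shoot array that stands apart over all probe sets.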

How the results depend on the processing

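The number of members depended on the rule's settings: 22 became 112 when the mean only had to be below the controls by any amount, 72 at 0.4 and 9 at 0.6, 18 with all 3 controls (13 shared with the 22), and 19 to 39 when 1 array of the rule was left out, with 39 and 36 without control replicate 2 or 3. The median place at 50 kPa ran from 0.14 to 0.29 when 1 replicate was left out (0.14 without replicate 1). Members passing the methods' threshold stayed at 0 in all 6 tests under all settings run. Counts of members lower at an unadjusted p under 0.05 moved as follows; the cause was not tested beyond what each setting changes. For root 50 kPa against 25 kPa/NormOx (0), the count was 1 with the trended robust prior, 6 with array weights, 3 without root 97 kPa replicate 1, and 0 to 1 with a 50 kPa replicate left out. For the shoot low-oxygen contrast (1), it was 7 with array weights and 1 to 5 with 1 replicate left out, 5 without 50 kPa/NormOx replicate 1. For 25 kPa against 97 kPa (2), it was 7 with array weights, 7 without that array, 0 with the level filter, which removes PDF2.5, and 2 to 4 with 1 replicate left out. For 97 kPa/HypOx (2), it was 5 with array weights, 1 with the filter and 1 to 3. For 50 kPa (1), it was 0 with the filter and 0 to 1. For 25 kPa against 25 kPa/NormOx (2), it was 9 with array weights, 5 without that array and 0 to 3. For array weights in shoots, and other settings with no share given above, the share of all probe sets was not computed. In the root test that share was 9.29% with array weights against 1.63% in the main fit. A higher count without its share is therefore not a result about the members. Array weights gave 2, 5 and 4 members at Benjamini-Hochberg in the low-oxygen contrast, in 25 kPa against 97 kPa and in 25 kPa against 25 kPa/NormOx, where the main count was 0; no other setting gave any. With a replicate block the counts in the 6 tests were 0, 1, 3, 2, 1 and 2, and HTB1 in 25 kPa shoots against 25 kPa/NormOx missed the unadjusted threshold (same difference, -0.36). Same-numbered arrays did not all deviate together: 13 of 26 root pairs and 12 of 40 shoot pairs correlated above 0.1. No member at an unadjusted p under 0.05 changed direction in any setting run, but of the others 11, 7, 5, 10, 10 and 7 members in the 6 tests turned sign in at least 1 setting; in the root test AT1G23160 (-0.66) and AT4G10280 (-0.55) did so with control replicate 1 averaged into the reference.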
